A study of Mus musculus with 2 samples.

Results

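The replication-dependent histone genes are the mouse genes that supply histone proteins H1, H2A, H2B, H3 and H4 to newly made DNA. They were taken as every gene whose symbol begins with Hist1h, Hist2h, Hist3h or Hist4h and that has a protein-coding transcript in the deposited tables. This gave 67 genes of 22028 protein-coding genes: 6 of H1, 18 of H2A, 18 of H2B, 12 of H3 and 13 of H4. Another 3 genes with such symbols are annotated as pseudogenes and were left out, with 2 expected counts in replicate 1 and 0 in replicate 2 among them.

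The RNA came from nuclei of bone marrow-derived macrophages, primary cells of C57BL/6J mice, and was sequenced as total RNA after ribosomal RNA had been removed. The labels call this preparation nucleoplasmic in one field and nuclear in another. The cells had a first exposure to Lipid A, the TLR4-activating part of endotoxin, at 100 ng/ml lasting 12 h, a 12 h washout, and a second exposure at that dose lasting 60 min. The single group holds 2 libraries made from 1 µg of RNA (replicate 1) and 500 ng (replicate 2), with no age or sex recorded. Both carry the same donor identifier, separate animals are not stated, and their spread may be technical. No unstimulated cells were analysed here, so no level below measures a response to Lipid A, and with 1 group no test between conditions exists.

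Histone genes of this kind are transcribed mainly in S phase, when each new DNA molecule needs packaging. Their mRNAs are unusual among those of animals in having no poly(A) tail. They end just after a short RNA hairpin, the stem-loop, which is bound by the protein SLBP and positions the cut made with the U7 small nuclear ribonucleoprotein and the nuclease encoded by Cpsf3. Variant histones are instead made throughout the cell cycle from ordinary polyadenylated mRNAs, often from genes with introns. Rapid decay of the stem-loop mRNAs at the end of S phase keeps histone supply matched to DNA synthesis.

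The hairpins are shown first because they define the mature end of these mRNAs and because the annotated transcripts treat them differently. A hairpin of 16 bases was searched for in the 100 bases after the stop codon of each annotated coding transcript, on the sense strand. It had to start with GG and have 6 paired bases on each side of a loop of 4. Of the 67 members, 52 had at least 16 bases after the stop codon, and 46 of these (88.5%) held such a hairpin. Among all protein-coding genes the share was 117 of 20965 (0.558%). The stem read GGCTCT in 34 members, GGCCCT in 10 and GGTCCT in 2. The loop read TTTC in 35 members and TTTA in 6, while TTTT occurred in 3, TCTT in 1 and TCTC in 1. Below, 5 examples from members with high levels are given 5′ to 3′ as DNA letters from the GENCODE M21 transcripts (mm10), with both arms of the stem in capitals. Up to 5 bases flank each hairpin. They lie at chr13:23739507-23739532 (plus strand), chr11:58955167-58955192 (plus), chr3:96239779-96239804 (minus), chr13:21812124-21812147 (plus) and chr13:22043633-22043658 (plus), in the order printed.
Hist1h1c: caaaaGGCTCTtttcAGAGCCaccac
Hist3h2a: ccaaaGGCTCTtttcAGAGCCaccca
Hist2h2aa2: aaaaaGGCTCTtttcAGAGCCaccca
Hist1h4m: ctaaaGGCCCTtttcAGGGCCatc
Hist1h2bj: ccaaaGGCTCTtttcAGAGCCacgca
The H4 hairpin shown differs from the other 4 in its stem, which reads GGCCCT against GGCTCT, and its annotated transcript stops 3 bases after it.

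Together the 67 genes made a very small part of the sequenced RNA. They held 2367 of 23914018 expected counts in replicate 1, or 0.00990% (95% Wilson interval 0.00951 to 0.0103), and 1220 of 15721469 in replicate 2, or 0.00776% (0.00734 to 0.00821). An expected count is an estimated number of reads, which need not be whole where reads fit several genes. These intervals cover counting error only, and they do not overlap. The RNA is from nuclei, so histone mRNA in the cytoplasm is not part of these levels. Since it is also a bulk preparation, fewer cells making histone mRNA, less of it per cell and more of it outside the nucleus cannot be told apart.

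Levels below are in TPM, the share of each transcript after its counts have been divided by its effective length, the part of it from which fragments can start. Where a gene has a pair of values, that of replicate 1 stands before that of replicate 2. Of the 67 members, 19 reached 1 TPM in both libraries (28.4%), against a background of 39.9% of protein-coding genes. None reached 10 TPM in both, a level that 3281 protein-coding genes passed. A further 38 members were below 1 TPM in both libraries. The median member had 0.62 TPM in replicate 1 and 0.53 in replicate 2, while the median protein-coding gene had 0.28 and 0.21. At the low end, 5 of the 67 members had 0 counts in both libraries, as had 7652 of the 22028 protein-coding genes. The members' median was thus above that of protein-coding genes while fewer of them reached 1 TPM. Just inside that floor were Hist1h1e with 1.46 and 1.16 TPM, Hist1h4b with 3.93 and 1.18, and Hist2h2aa1 with 2.28 and 1.25. Just outside were Hist1h2bg with 2.90 and 0.97 TPM, Hist1h2ad with 1.76 and 0.91, and Hist2h2ab with 0.96 and 0.75.

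The level was carried by a few members. The 5 highest held 43.2% of the summed TPM in replicate 1 and 36.8% in replicate 2, and the 20 highest held 83.8% and 77.9%. Of single genes, 34 had over 3 expected counts in both libraries and 28 had a mean of 10 or more, so most members rest on few reads. Over the 67 genes, the TPM of both libraries had a Spearman correlation of 0.757, with members of 1 family sharing sequence and therefore reads.

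**Figure D1:**
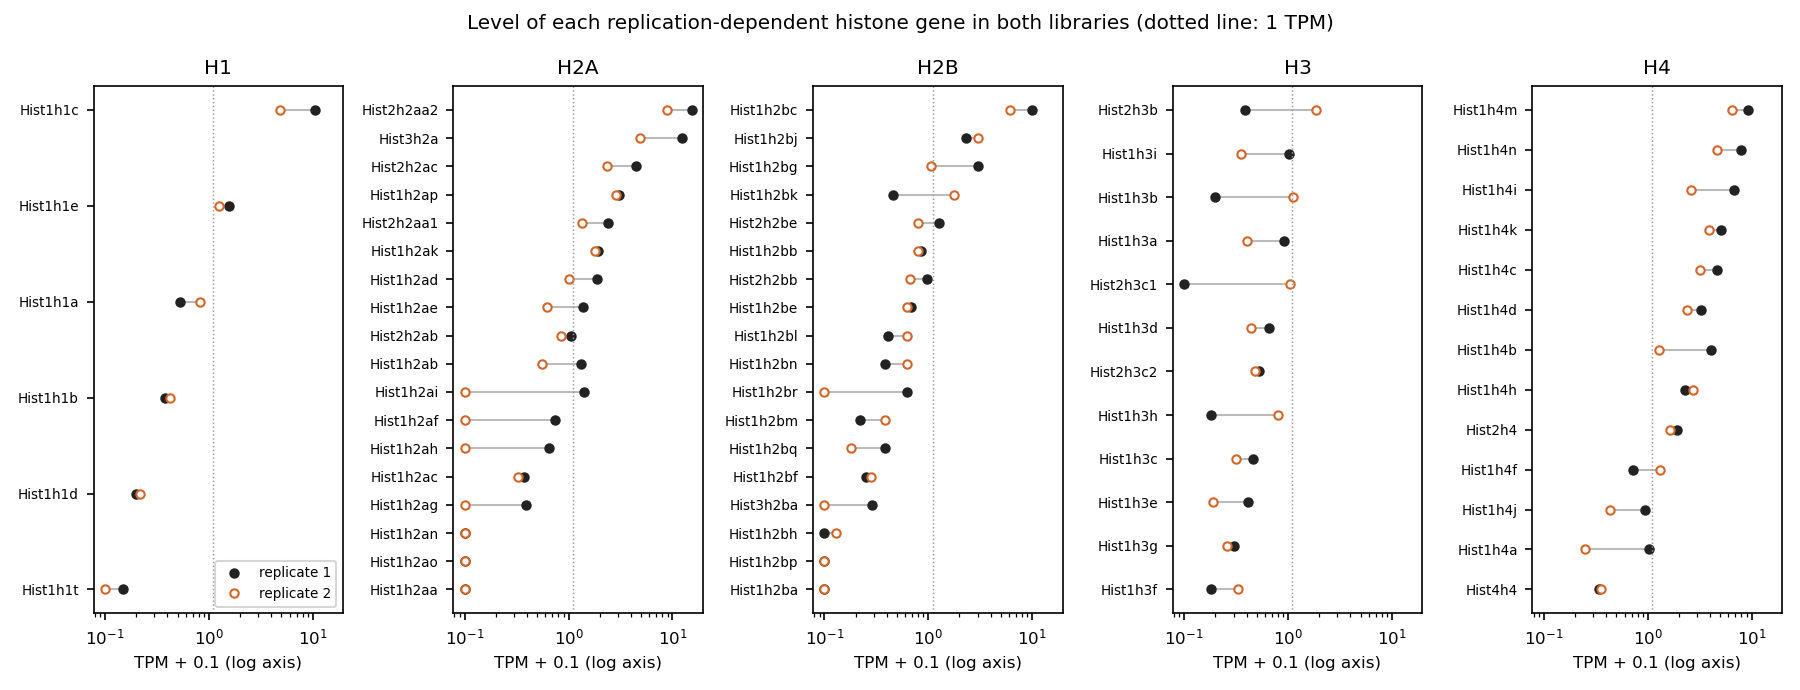
TPM plus 0.1 on a log axis for each of the 67 genes, with replicate 1 as filled points and replicate 2 as open points, in 1 panel per histone family; the dotted line marks 1 TPM. H4 has 9 of 13 genes right of the line in both libraries, while H3 has 0 of 12.

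H1 is the linker histone that sits on DNA between nucleosomes, and its genes were led by a single member. Hist1h1c, at chr13:23738808-23740367 on the plus strand, had 10.30 and 4.70 TPM from 367 and 149 expected counts. Hist1h1e, the next, had 1.46 and 1.16 TPM. The remaining 4 were below 1 TPM in both libraries. Hist1h1a had 0.43 and 0.73 TPM, Hist1h1b 0.28 and 0.32, and Hist1h1d, whose annotated transcript of 7425 bases is the longest of all members, 0.10 and 0.12. Hist1h1t, the linker histone of the testis, had 1 count in replicate 1 and 0 in replicate 2. Most H1 sequences differ from all others: the median H1 gene shared 1.13% of its 50-base stretches with any other gene. Hist1h1e is the exception, with 32.0%, and it overlaps Hist1h2be on the same strand over 25.7% of its bases.

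H2A forms a dimer with H2B in the nucleosome, and its family sum was 47.20 TPM in replicate 1 and 24.37 in replicate 2 (35.8 ± 16.1, SD, n = 2). Its most abundant members lay outside the large cluster on chromosome 13. Hist2h2aa2, at chr3:96239749-96240276 on the minus strand, had 15.17 and 8.82 TPM from 128 and 64.5 counts, the highest level of any member. Hist3h2a, at chr11:58954685-58956830 on the plus strand, had 12.33 and 4.72 TPM. It held 629 and 215 counts, more than any other member in either library, on a transcript of 2146 bases. Hist2h2ac on chromosome 3 had 4.39 and 2.25 TPM. Hist1h2ap was the highest H2A gene of chromosome 13, with 2.93 and 2.77 TPM. In all, 6 of 18 H2A genes reached 1 TPM in both libraries. Hist1h2aa, known as a testis gene, Hist1h2an and Hist1h2ao had 0 counts in both.

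H2B summed to 20.58 TPM in replicate 1 and 15.78 in replicate 2 (18.2 ± 3.39, SD, n = 2). Hist1h2bc, at chr13:23684199-23692908 on the plus strand, had 9.85 and 6.08 TPM, the largest part of the family in either library. Hist1h2bj had 2.21 and 2.94 TPM. These were the only H2B genes at 1 TPM or more in both libraries, 2 of 18. Hist1h2bg had 2.90 and 0.97 TPM and Hist1h2bk 0.36 and 1.67, so that which of them was higher differed between the libraries. Hist1h2ba, the H2B gene of the testis, and Hist1h2bp had 0 counts.

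H3 carries many of the regulatory marks of chromatin and was the lowest family. Its 12 genes summed to 4.14 TPM in replicate 1 and 6.42 in replicate 2, which is 3.15% and 7.68% of the members' TPM. No H3 gene reached 1 TPM in both libraries. Hist2h3b had 0.29 and 1.78 TPM, Hist1h3i 0.92 and 0.25, Hist1h3b 0.10 and 1.02, and Hist1h3a 0.81 and 0.30. For each of these 4 the libraries differed more than 2-fold in TPM, in either direction, on at most 11.4 expected counts. Their order among themselves was not resolved at this depth.

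H4, which pairs with H3 in the nucleosome core, was the most evenly detected family, with 9 of 13 genes at 1 TPM or more in both libraries. Its sum was 46.73 TPM in replicate 1 and 30 in replicate 2 (38.4 ± 11.8, SD, n = 2), and its median gene had 3.14 and 2.30 TPM. Hist1h4m, at chr13:21811746-21812147 on the plus strand, had 9.07 and 6.43 TPM. Hist1h4n had 7.79 and 4.55, Hist1h4i 6.62 and 2.53, and Hist1h4k 5 and 3.79. The 4 leaders kept the order Hist1h4m, then Hist1h4n, in both libraries, while Hist1h4i was above Hist1h4k in replicate 1 and below it in replicate 2. Hist4h4, on chromosome 6, was the lowest H4 gene by the mean, with 0.24 and 0.26 TPM. H3 and H4 enter nucleosomes in equal numbers; in TPM the H4 sum was far above the H3 sum in both libraries.

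The family shares depend on the correction for length. Without a correction for length, H4 held 20.7% of the members' expected counts in replicate 1 and 23.1% in replicate 2, against 35.6% and 35.9% of their TPM. H1 moved the other way, with 19.5% and 18.8% of counts against 9.61% and 8.41% of TPM. H3 stayed lowest on both scales, with 2.25% and 7.31% of counts. The deposited kallisto tables, made from the reads by another method, gave H3 3.73% and 6.74% of TPM and H4 35.5% and 34.2%. Summed over all members, kallisto gave 43.0 TPM in replicate 1 and 43.4 in replicate 2, where the RSEM gene tables gave 131.27 and 83.60. As a share of counts with no correction for length, kallisto gave the members 91.1 RPM in replicate 1 and 74.9 in replicate 2, and RSEM 99.0 and 77.6. The lower total of replicate 2 was therefore present in both RSEM units and in kallisto counts, and not in kallisto TPM. The summed RSEM TPM of all nuclear protein-coding genes was also lower in replicate 2, at 188039 against 281404 in replicate 1. H2A and H4 were the highest families in both methods: H2A was just above H4 in replicate 1 of the RSEM tables, with 36.0% against 35.6%, and below it in replicate 2 and in both libraries of kallisto. H2B, H1 and H3 followed in that order of TPM in both libraries and both methods.

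**Figure D2:**
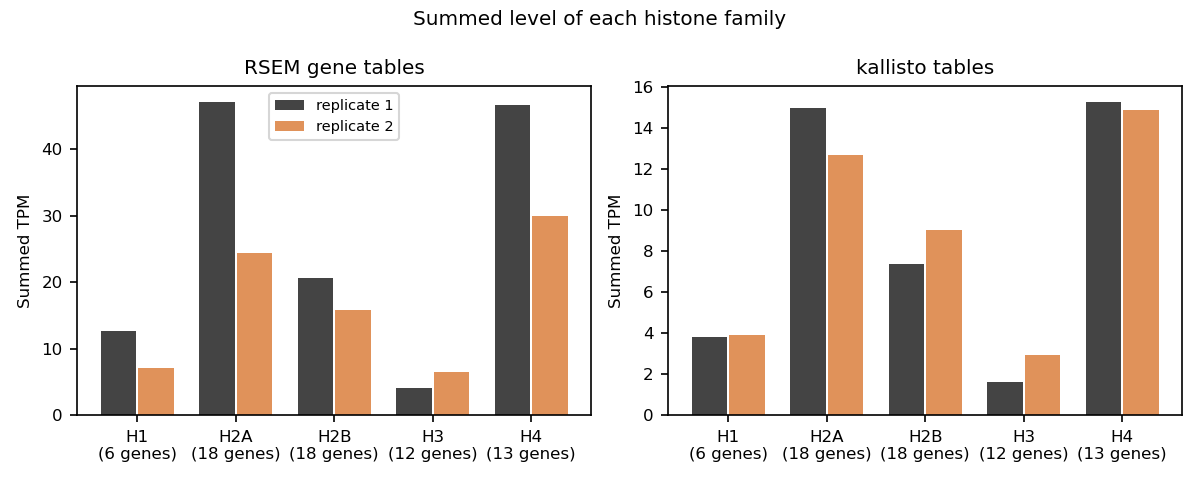
Summed TPM of each histone family in replicate 1 (dark bars) and replicate 2 (light bars), from the RSEM gene tables on the left and the kallisto tables on the right, each axis starting at 0. H2A and H4 are highest and H3 is lowest in both; the kallisto sums of H4 differ little between the libraries, at 15.3 and 14.8 TPM, against 46.73 and 30 in the RSEM tables.

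The annotated 3′ ends of the members fell into classes that the search for the hairpin defines. For 15 genes every base after the stop codon, or nearly so, is missing from the annotation, and these could not be searched. For 9 genes the longest coding transcript ends within 30 bases of the hairpin, near the end of a mature histone mRNA. For 36 it runs on past that, and for 7 no hairpin was found in it. Hist1h2bc is among these 7, with an annotated transcript that is spliced to a distant second exon. Hist2h2be has 2192 bases after its stop codon, while Hist2h3b has 37 and Hist1h1a 48. The other 3, Hist1h2bp, Hist1h2bq and Hist1h2br, have spliced forms, and of Hist1h2bp a shorter form holds the hairpin.

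Most of the reads lay on genes annotated past the hairpin. The 36 genes held 77.8% of the members' counts in replicate 1 and 73.9% in replicate 2, and 64.6% and 58.3% of their TPM. The 9 genes that end near it held 5.18% and 7.05% of counts and 15.9% and 19.5% of TPM. By the median over genes the order was the reverse: the 9 had a median mean TPM of 1.015 and the 36 one of 0.56. The longer class has 36 of the 67 members and the other 9, so its larger share does not by itself mean a higher level per gene. Some of the 36 run only a little past the limit: Hist2h2aa2 ends 35 bases after its hairpin and Hist1h4n 31. The 13 genes that run 31 to 100 bases past it held 27.3% and 28.3% of the members' TPM, a border chosen after the values were seen. The 23 that run further, such as Hist3h2a with 1643 bases and Hist1h1c with 840, held 37.3% and 30.1% of TPM and 65.9% and 60.8% of counts. The gene tables give 1 value per gene, so whether reads lay before or after a hairpin was not measured.

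A polyadenylation signal, AATAAA or ATTAAA in the last 40 bases, was present at the end of 17 of the 67 members (25.4%) and of 16567 of 21674 protein-coding genes (76.4%). Those 17 genes, Hist3h2a and Hist1h1c among them, held 57.1% of the members' counts in replicate 1 and 48.7% in replicate 2, and 29.99% and 23.5% of their TPM. Their transcripts are long, with a median of 1254 bases. Their median mean TPM was 0.56, close to the 0.58 of all members. The search also required bases after the stop codon, so the 15 members annotated to end at or just after it could not hold a signal. All 17 are among the 52 members with at least 16 bases after the stop codon. Of the 21674 protein-coding genes, 20965 had as many, so missing annotation lowers the members' share more. A match is a property of the annotated end and not a measured poly(A) site.

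**Figure D3:**
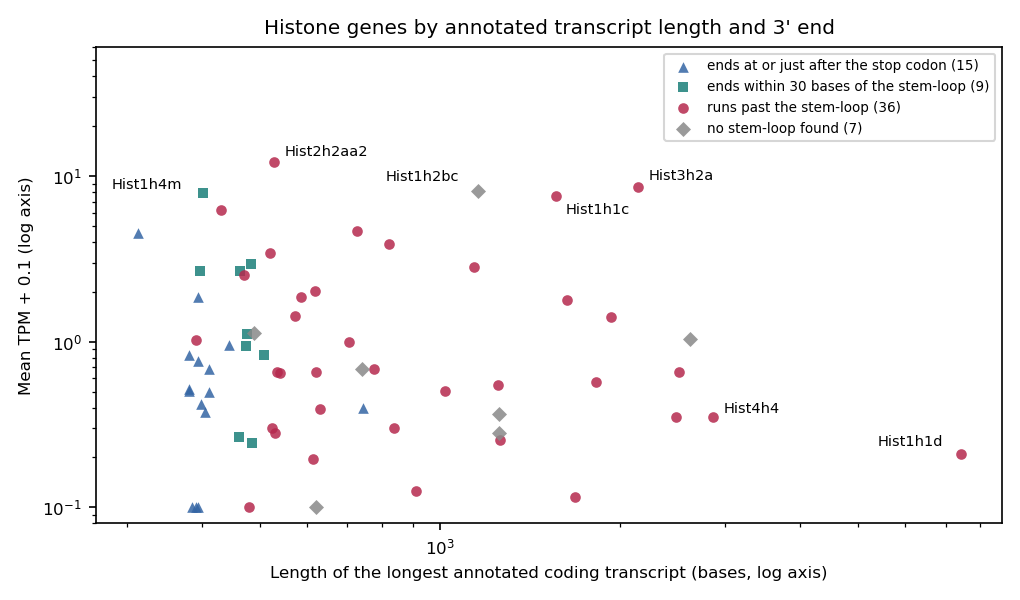
Mean TPM plus 0.1 of both libraries against the length in bases of the longest annotated coding transcript, both on log axes, for the 67 genes; the symbol gives the class of annotated 3′ end. High levels occur on short and long transcripts: Hist1h4m has 402 bases and Hist3h2a 2146.

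Short transcripts make the TPM of single members imprecise. Hist1h4k is annotated as its coding sequence alone, 312 bases, and its 5 and 3.79 TPM rest on 14.5 and 8.81 counts. Hist2h4 had 68 and 51 counts on 1630 bases and came to 1.82 and 1.53 TPM. The same number of reads therefore weighs far more on the first gene than on the second. For the 5 members at 0 counts in both libraries, the 3 counts that a 0 allows would be 0.338 to 0.640 TPM in replicate 1 and 0.389 to 0.762 in replicate 2, so levels under these were not detectable. Hist1h2ao and Hist1h2an share 93.5% and 85.8% of their 50-base stretches with other genes, so their 0 also rests on how shared reads were divided. Their deposited TPM intervals reach 1.55 and 0.872 in replicate 1, above those limits.

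Near-identical copies add a further uncertainty, since reads in shared stretches are divided by estimate. Of the 67 members, 34 shared 50% or more of their 50-base stretches with another gene, and 4 shared none. The median was 73.0% in H2A, 62.0% in H3, 46.9% in H2B and 39.5% in H4. Summed counts over linked copies do not depend on how reads were divided among those copies. Summed TPM can, because the copies differ in effective length. In replicate 1 it was 175 bases for Hist1h2bl and 2234 for Hist1h2be, which are in 1 set. Both kinds of sum still depend on the division with genes outside the set. Both Hist2h2aa1 and Hist2h2aa2, for example, share 100% of their stretches with genes that are not members. Hist1h4m and Hist1h4n together had 16.86 and 10.98 TPM. Hist2h2aa1 and Hist2h2aa2 together had 17.45 and 10.07. A set of 11 H2A genes of chromosome 13 came to 10.24 and 4.89 TPM, less than the last pair alone, and a set of 11 H2B genes led by Hist1h2bc came to 17.46 and 13.5. The 9 linked H3 genes of chromosome 13 came to 3.42 and 3.32 TPM, while the 3 linked H3 genes of chromosome 3, Hist2h3b, Hist2h3c1 and Hist2h3c2, came to 0.72 and 3.10 TPM from 11.3 and 54.2 counts. The chromosome 13 sum was thus close in both libraries and the chromosome 3 sum was not.

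The quantifiers ranked the members alike, with a Spearman correlation of 0.963 over the 67 genes between the mean TPM of RSEM and of kallisto. The RSEM value was higher by a median of 1.28 on the log2 scale for members, and of 0.97 for protein-coding genes. Over 4-fold apart were Hist2h2aa1, with a mean of 1.77 TPM in RSEM and 0.383 in kallisto, and Hist1h2bh, with 0.015 and 0.0851. Hist2h2aa1 shares its sequence with Hist2h2aa2, and their kallisto sum was 5.14 and 4.46 TPM.

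Annotated neighbours overlap several members, and the use of strand in the counting is not given in the sources used here. Hist2h2aa2, the highest member, lies wholly opposite the predicted gene Gm20632, which held 105 and 78.4 counts. Hist2h2aa1 lies opposite Gm20633 with 108 and 74.4 counts. Hist3h2a shares 33.0% of its bases with Trim17 on the same strand, a gene with 46 and 24 counts. Reads from these overlaps cannot be told apart from the member's own by these tables. Hist3h2a held 629 and 215 counts. Its counts and those of Trim17 are given after shared reads were divided by estimate, so they do not show how many reads were shared.

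By position, 54 of the 67 genes lie on chromosome 13 and 10 on chromosome 3, with 2 on chromosome 11 and 1 on chromosome 6. Taking gaps of over 100 kb as borders, chromosome 13 has 4 blocks. Block 1 has 18 genes (chr13:21715763-21837530), block 2 has 5 (chr13:22035164-22043676), block 3 has 29 (chr13:23531050-23764406) and block 4 has 2 (chr13:23933773-23934851). Block 3 summed to 49.51 and 30.26 TPM, block 1 to 31.58 and 22.25, and block 2 to 10.03 and 7.14. Block 4, made of the testis genes Hist1h2aa and Hist1h2ba, had 0 in both libraries. The 10 genes of chromosome 3 (chr3:96219865-96270132) summed to 27.39 and 18.97 TPM, and the 2 of chromosome 11 to 12.52 and 4.72. High and low members lay in the same block: Hist1h1c, with 10.30 and 4.70 TPM, is in block 3 with Hist1h1t, with 0.05 and 0.

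**Figure D4:**
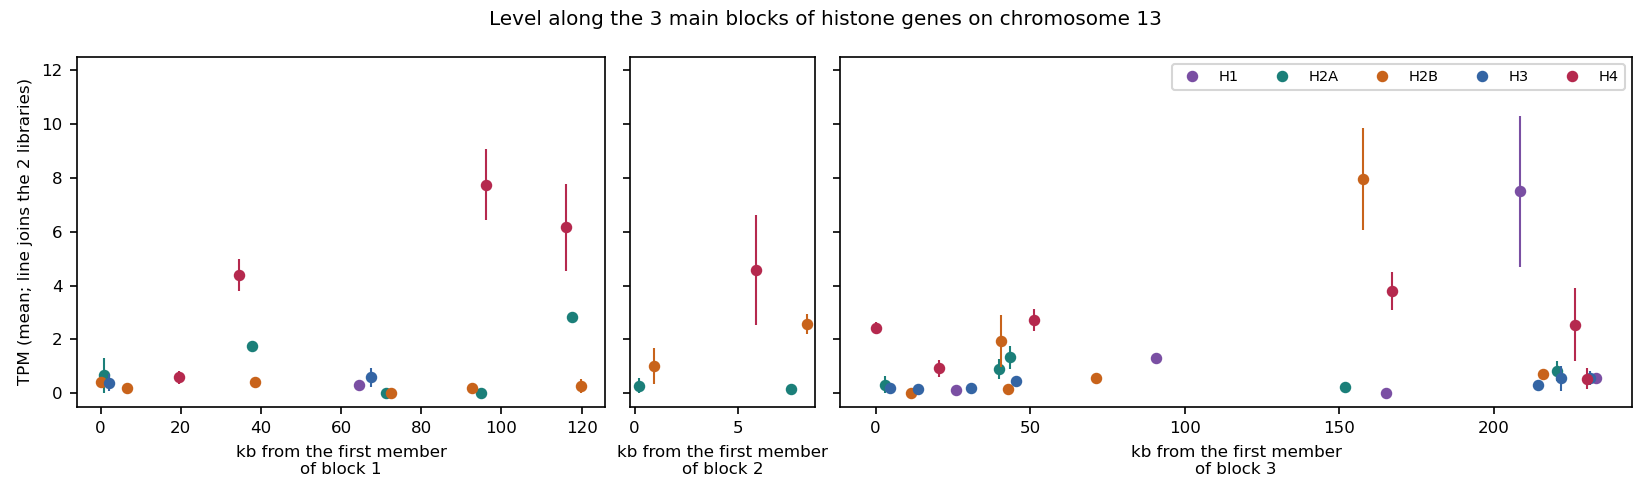
Mean TPM of each gene against its distance in kb from the first member of its block, for the 3 larger blocks of chromosome 13; colours give the family and each line joins the values of both libraries. Single high genes, such as Hist1h4m in block 1, Hist1h4i in block 2 and Hist1h2bc and Hist1h1c in block 3, each have an adjacent gene with a mean below 1 TPM.

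Histone genes of H2A and H2B are often arranged head to head, with a short stretch of DNA between their starts. There were 13 such pairs with a gap of up to 1000 bases, of which 12 join an H2A and an H2B gene with gaps of 175 to 305 bases. In TPM, the H2A gene was higher in both libraries in 4 of the 12 and the H2B gene in another 4. Sharing a gap therefore did not go with equal TPM. Hist1h2ac had 0.27 and 0.23 TPM while Hist1h2bc, 250 bases away, had 9.85 and 6.08. In the reverse direction, Hist2h2ac had 4.39 and 2.25 TPM and Hist2h2be, 238 bases away, 1.17 and 0.70.

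Promoter windows, from 250 bases before to 50 after the start, were available from RefSeq (GRCm38.p6) for 62 of the 67 members. The letters TATAAA, on either strand, occurred in 35 of them (56.5%), and in 13.6% of all 32851 promoters in that table. CCAAT, on either strand, occurred in 53 (85.5%), and in 37.4% of all promoters. Both occurred in 29 (46.8%), against 5.31% of all. The families differed in CCAAT: it was found in each of the 6 H1, 18 H2A, 16 H2B and 10 H3 windows and in 3 of 12 H4 windows. Windows of head-to-head genes can cover much of the same DNA, as do chr13:23574131-23574430 (Hist1h2ad) and chr13:23574158-23574457 (Hist1h2bf). A match in the shared part is counted for both genes, so these windows are not independent. TATAAA and CCAAT do not overlap in their letters, and a match is not evidence of binding.

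The window of Hist1h2ac is printed because it spans the whole gap to Hist1h2bc, whose level was far higher. It lies at chr13:23683910-23684209 on the minus strand, and its RefSeq start differs from the M21 start by 11 bases. Capitals mark TATAAA and CCAAT on either strand, so that ATTGG is CCAAT on the other strand.
Hist1h2ac: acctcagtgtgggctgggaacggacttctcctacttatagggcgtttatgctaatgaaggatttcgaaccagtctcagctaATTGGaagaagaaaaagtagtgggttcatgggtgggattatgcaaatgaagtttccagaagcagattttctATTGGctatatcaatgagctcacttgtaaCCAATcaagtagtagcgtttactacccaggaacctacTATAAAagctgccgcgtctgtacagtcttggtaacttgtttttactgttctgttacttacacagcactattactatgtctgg
The windows of Hist3h2a (chr11:58954435-58954734, plus strand) and Hist1h4m (chr13:21811496-21811795, plus strand) show the difference in CCAAT between H2A and H4 in members with high levels. The Hist3h2a window holds CCAAT on both strands, and the Hist1h4m window holds none. TATAAA was present in 11 of 18 H2A and 8 of 12 H4 windows, and the Hist3h2a window is among the H2A windows without it.
Hist3h2a: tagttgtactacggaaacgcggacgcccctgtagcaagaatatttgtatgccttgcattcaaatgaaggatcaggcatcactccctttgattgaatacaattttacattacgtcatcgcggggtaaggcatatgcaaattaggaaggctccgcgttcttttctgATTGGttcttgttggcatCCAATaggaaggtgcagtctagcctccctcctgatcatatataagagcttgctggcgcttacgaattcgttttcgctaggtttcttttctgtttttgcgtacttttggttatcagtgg
Hist1h4m: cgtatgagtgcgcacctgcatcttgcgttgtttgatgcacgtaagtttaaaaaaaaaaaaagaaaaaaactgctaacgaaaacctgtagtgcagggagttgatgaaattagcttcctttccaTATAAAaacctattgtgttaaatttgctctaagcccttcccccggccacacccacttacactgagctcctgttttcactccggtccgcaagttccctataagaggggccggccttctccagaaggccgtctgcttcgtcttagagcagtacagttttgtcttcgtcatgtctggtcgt

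Between the libraries, how the members compared with other genes depended on the measure. After TMM normalisation, 3 of the 28 members with a mean of 10 or more counts were over 2-fold apart, or 10.7%. The background was 8.60% of 14052 genes. With 1 library on each side this is a description of these libraries and not a test. Hist1h4b and Hist1h2bg were over 2-fold higher in replicate 1, by 1.32 and 1.14 on the log2 scale, where the background in that direction was 4.29%. Hist2h3c1 was lower in replicate 1, where the background was 4.31%. With kallisto counts 6 of 34 members (17.6%) were over 2-fold apart, against 11.8% of genes. Hist1h2bg, at 1.26, and Hist2h3c1 were among those 6. The median log2 ratio of replicate 1 over replicate 2 was 0.19 for the members and -0.00097 for all genes tested. Hist3h2a differed by 0.93, Hist1h4i by 0.98 and Hist1h1c by 0.69 on this scale, all higher in replicate 1. The deposited TPM intervals lay apart for 5 of the 67 members, against 20.7% of protein-coding genes. These 5, Hist1h1c, Hist1h2bc, Hist1h2bg, Hist1h4i and Hist3h2a, were higher in replicate 1, and TPM as deposited was also higher there for the median gene, by 0.44 on the log2 scale.

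Hist2h3c1 had 0 counts in replicate 1 and 35.7 in replicate 2. No other member with a mean of 10 or more counts was at 0 in a library. It lies wholly within the predicted gene Gm20634 on the same strand, which also covers 90.3% of Hist2h2aa1. Gm20634 held 212 counts in replicate 1 and 113 in replicate 2. The 3 genes together held 235 and 159 counts, so the locus as a whole did not share the gap. Kallisto likewise gave Hist2h3c1 0 and 36.9 counts, but on the other of its transcripts. The part of the overlap in this difference was not tested.

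Spliced forms were a small part of the members' signal outside Hist1h2bc. Hist1h2be had 31.7 and 22.1 counts on 1 coding form and 3 and 5 on a form annotated as a processed transcript, to which kallisto gave 23.8 and 27.9. Hist1h2br had 13.4 and 0 counts on a form annotated for nonsense-mediated decay, where kallisto gave 14.0 and 11.1. For Hist1h2bq the corresponding form had 0 and 2.21 counts, and 35.5 and 7.64 by kallisto. The methods thus divided the reads of these forms differently.

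Each of 4 lists of genes that work with the histones or with S phase had a higher median than the histone genes in this nuclear RNA. Cytoplasmic RNA was not measured for the lists or for the members. The replication-independent variants, which replace the S-phase histones outside replication, had 7 of 13 genes at 1 TPM or more in both libraries, with a median of 3.32 and 3.56 TPM. H3f3b, which encodes the replacement H3, had 256.57 and 141.59 TPM, and H3f3a, which encodes the same protein, 47.29 and 26.84. H2afy, a macroH2A gene, had 49.41 and 31.21 TPM, and H2afz, which encodes H2A.Z, 15.64 and 10.03. H2afb1 had 0 and H1fx 0.04 and 0 TPM. The variants' TPM summed to 394 and 224, against 131.27 and 83.60 for the 67 members. In H3 the contrast was widest, 4.14 and 6.42 TPM for all 12 members against 256.57 and 141.59 for H3f3b alone.

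Factors that make or destroy the histone 3′ end were present: 13 of 19 measured genes reached 1 TPM in both libraries, with a median of 5.69 and 4.20 TPM. The highest were Srrt, a cap-binding partner, with 37.91 and 33.04 TPM, Cpsf1 with 15.13 and 10.57, Sympk, the scaffold symplekin, with 14.83 and 8.27, and Upf1, a helicase of mRNA decay, with 11.98 and 7.95. Zfp473, a zinc finger protein of the U7 particle, had 0.08 and 0.04 TPM and the U7 RNA gene Rnu7 was listed at 0. Kallisto gave Zfp473 higher values, 0.393 and 0.666 TPM, so its level depends on the quantifier. The following genes were picked after their values were seen. Slbp had 7.01 and 5.81 TPM, Eri1, the exonuclease that trims the hairpin, 7.24 and 6.31, Npat, the transcription coactivator of histone genes, 1.34 and 0.85, and Lsm11, of the U7 ring, 0.30 and 0.21. Lsm10, the partner of Lsm11 in that ring, had 7.61 and 6.18 TPM, above the median of the list, so the measured parts of the U7 particle were at unlike levels. Whether an RNA as short as U7 could be captured in these libraries was not tested.

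Histone chaperones, which carry histones to and from DNA, had 13 of 15 genes at 1 TPM or more in both libraries and a median of 11.94 and 7.28 TPM. Daxx, which with Atrx deposits replacement H3, had 169.35 and 83.49 TPM and Atrx 71.67 and 44.01. Ubn1, of the HIRA complex, had 25.74 and 19.55 TPM, and Nap1l4 23.27 and 12.99. Chaf1a, of the complex that loads histones at replication forks, had 0.88 and 1.49 TPM and Asf1b 0.19 and 0.55. Related genes of the list were higher: Chaf1b had 1.37 and 1.41 TPM, Asf1a 7.15 and 5.40, and Rbbp4 10.43 and 7.28. All of these were picked after their values were seen.

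Genes of S phase and mitosis had 15 of 30 at 1 TPM or more in both libraries, with a median of 1.54 and 1.32 TPM. The highest was Mki67, a marker of cycling cells, with 48.48 and 43.08 TPM. Next came Pcna, the sliding clamp of replication, with 27.95 and 21.48. Tk1 had 7.92 and 5.45 TPM and Mcm3, of the replicative helicase, 5.78 and 4.45. Other genes of the list were below 1 TPM in both libraries. Among them, Ccna2 had 0.34 and 0.99 TPM, Ccnb1 0.46 and 0.24, and Bub1 0.22 and 0.21, picked after their values were seen. The relation between these levels and those of the histone genes was not tested, since there is 1 condition. All 10 macrophage markers passed 10 TPM in both libraries, led by Lyz2 with 2211 and 1413 TPM. None of the 8 neutrophil, 7 lymphoid or 8 erythroid and progenitor markers reached 1 TPM in both, with highest means of 0.96, 0.05 and 0.79 TPM. Their summed levels were 1.89 and 1.51, 0.10 and 0.11, and 2.29 and 1.24 TPM. Of 6 stromal and endothelial markers 1 did, Kdr with 13.74 and 4.14 TPM, in a list that summed to 15.8 and 5.17 TPM. Their part in the histone levels was not tested.

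**Figure D5:**
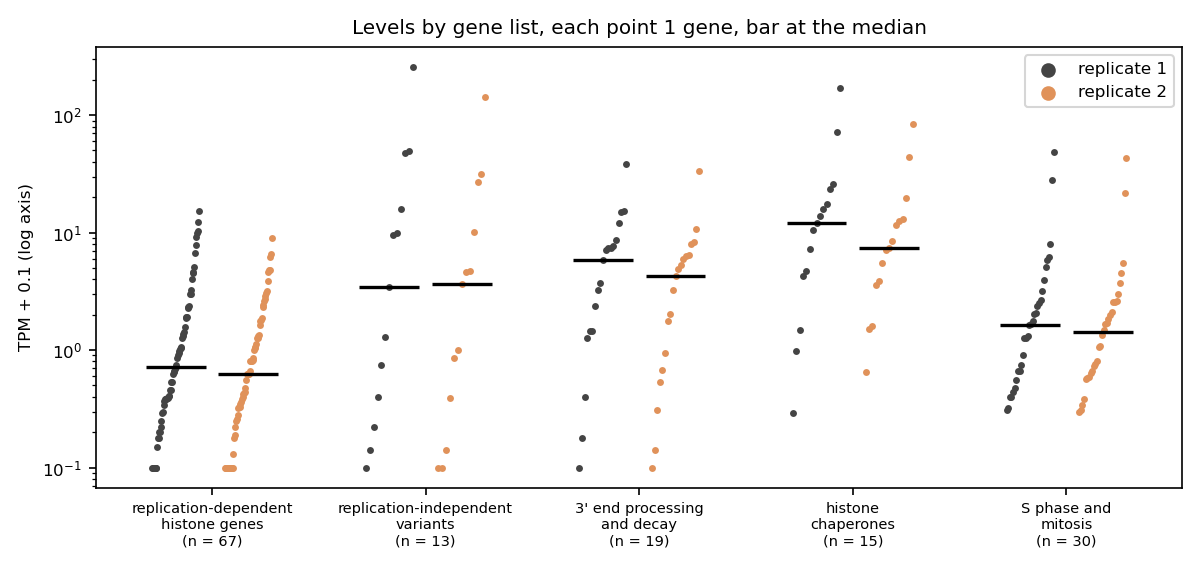
TPM plus 0.1 on a log axis for each gene of the replication-dependent histones and of 4 other lists, with replicate 1 in dark and replicate 2 in light points and a bar at the median. The histone median is lowest, at 0.62 TPM in replicate 1 and 0.53 in replicate 2, and the chaperone median is highest, at 11.94 and 7.28.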

How the data were processed

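For each library the authors made RSEM-format gene and transcript tables from transcriptome alignments, and a kallisto-format table from the reads, per the deposited readme files (mm10, GENCODE M21). Not given in the sources used here: aligner, tool versions, use of strand. The gene tables hold expected counts, per the file headers, which are estimates and can be fractional. The deposited TPM divides them by an effective length, which gives short transcripts large and unstable values. The posterior mean TPM, the bounds of a TPM interval (a score whose level is not stated) and the percent of a gene's TPM on each transcript are also as the authors deposited them.

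All 55536 gene rows with a mouse Ensembl identifier matched the M21 annotation. They held 23630328 of the 23914018 expected counts in replicate 1 and 15687634 of 15721469 in replicate 2. The other rows were not analysed here, but their counts are in the totals behind the members' share of counts. Members were found by symbol and transcript biotype, kallisto TPM was summed per gene, and levels are reported in each library with no test. Counts were rounded and TMM factors computed with edgeR 4.0.16 under R 4.3.3 (prior count 0.5) on genes averaging at least 10 counts, with size factors of DESeq2 1.42.0 as an alternative. Only the ratio of both libraries was taken, and called means over 2-fold. On simulated data for the ratio of replicate 1 over replicate 2, with 14052 genes of which 200 were changed 4-fold, 98.5% of the changed genes were recovered and 4.80% of the unchanged ones called. Depth was 23914018 expected counts in replicate 1 and 15721469 in replicate 2. Shares have 95% Wilson intervals and the limit for 0 counts is 3 counts, neither of which covers more than counting error. Python 3.11.15 with pandas 2.3.3, numpy 2.4.6, scipy 1.17.1 and matplotlib 3.10.9 did the rest.

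Hairpins, polyadenylation signals and shared 50-base stretches came from the M21 transcripts, and promoters from RefSeq (GRCm38.p6), both searched by exact letters. No genome sequence was used here.

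The members and the lists were chosen with earlier results of these data known. Genes named are the 4 highest of each family, those over 2-fold apart with both quantifiers or over 4-fold apart between quantifiers, those with 0 counts, those near 1 TPM, those with minor transcript forms over 10% of counts, and, in other lists, the 4 highest and up to 3 below 0.1 TPM. Others are named as examples of a count or where the text says that they were picked later. Zcchc11 and Zcchc6 matched no row and are not analysed here. Alternatives were kallisto values, other scalings, floors and filters, and each library alone.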

Additional observations from a re-analysis of the deposited data

How the results depend on the processing

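No paired analysis was possible because the labels give 1 group, with no other group to share its replicate numbers. The 19 members at 1 TPM or more in both libraries became 11 with kallisto, 39 when TPM was rescaled to nuclear protein-coding genes alone, 28 at a floor of 0.5 TPM and 3 at 5 TPM, and 23 to 25 in single libraries. The median of all 67 members, 0.58 TPM, became 0.278 with kallisto, 2.46 rescaled, 0.66 as the posterior mean and 2.49 over members with a mean of 10 or more counts, and 0.53 to 0.62 in single libraries. The summed TPM of 107 ± 33.7 (SD, n = 2) became 43.2 with kallisto, 456 rescaled and 88.3 as RPM of uncorrected counts, and 83.6 to 131 in single libraries. The 3 of 28 members over 2-fold apart (8.60% of all genes) became 7 of 28 with TPM as deposited (15.8%), 6 of 34 with kallisto (11.8%), 27 of 62 with no count filter (29.0%) and 0 of 10 at a mean of 50 or more counts (4.09%). The median log2 ratio of the 28 members, 0.19, became 0.62 with TPM as deposited. It kept its sign under every alternative tried. Both other hairpin settings only loosened the search, so none of the 46 could be lost, and no stricter setting was tried. No further member gained a hairpin, while among all protein-coding genes 180 had one within 200 bases and 920 with 5 of 6 pairs. Of 67 mean levels, 39 moved by more than the spread between libraries with kallisto. The causes were not tested. Depth limits single members: 34 of 67 had over 3 counts in both libraries.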
